A study of Homo sapiens with 8 samples.

Results

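Peroxiredoxins and the thioredoxins that recharge them were followed through 8 RNA-seq libraries of OVCAR3 cells, a human line of epithelial ovarian carcinoma. The family comprised 10 genes, PRDX1 to PRDX6, TXN, TXN2, TXNRD1 and TXNRD2, out of 20165 rows in each table of gene counts. It was picked because PRDX3 stood out in siTARG1 against siControl, so the values of PRDX3 in that comparison are given as a description with no test, and the other 9 genes belong by family. Each of the 10 had a row of its own and passed the filter on low counts, which kept 14024 genes.

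Peroxiredoxins are abundant enzymes that reduce hydrogen peroxide, organic peroxides and peroxynitrite through a reactive cysteine. In most of them the oxidized cysteine is reduced again by thioredoxin, and thioredoxin in turn by a thioredoxin reductase that spends NADPH. The cytosol uses TXN and TXNRD1 for this, and mitochondria use TXN2 and TXNRD2 with PRDX3 and PRDX5 as the peroxidases. Both reductases are selenoproteins, and TXNRD1 is a well known target of NRF2, the transcription factor of the oxidative stress response.

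The 4 groups held 2 libraries each. The siControl cells were transfected with a control siRNA and the siTARG1 cells with an siRNA against TARG1, the ADP-ribose hydrolase encoded by OARD1, both at 30 nM for 48 h. The other groups, RACK1-WT and RACK1-Mut, were stable lines made with lentiviral vectors and antibiotic selection. Both received 1 µg/ml doxycycline for 48 h, which induced an shRNA against the cell's own RACK1 together with an HA-tagged RACK1. That RACK1 was wild-type in the RACK1-WT line. In the RACK1-Mut line 3 acidic residues that carry ADP-ribose had been changed, aspartate to asparagine or glutamate to glutamine. RNA came from the input lysates of a ribosome profiling experiment and was depleted of rRNA. The study's methods give its sequencing replicates as independent biological samples. Which of its TARG1 siRNAs was used for these libraries is not given in the sources used here.

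The libraries held 30989049 to 42668783 exon counts, and both libraries of a group correlated at 0.9954 to 0.9964 (Pearson r of log2 values, across genes). The line's markers were present, with EPCAM at 324 to 474 and PAX8 at 265 to 439 normalized counts per 1000000 counts (CPM). Of the markers of other cells, HBB and CD3E were at 0 counts in every library and PTPRC at 3 to 28 counts. COL1A1 was at 4.81 to 7.47 CPM and VWF at 2.70 to 4.21. OARD1 was at 48.5 and 52.0 CPM in siControl, 3.11 and 3.98 in siTARG1, 46.2 and 42.9 in RACK1-WT, and 45.3 and 39.3 in RACK1-Mut, so its RNA was low in the siTARG1 libraries and no others. RACK1 was at 4620 and 4520 CPM in siControl, 4660 and 4240 in siTARG1, 1760 and 1900 in RACK1-WT, and 1400 and 1450 in RACK1-Mut. Because these are relative levels in bulk RNA, fewer cells that express a gene and less of its RNA per cell cannot be told apart.

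Short stretches of 4 of the genes and of OARD1 are shown first, because they hold one of 4 words of 7 bases. The words TGAACAT and GAACATA went with lower RNA, and GAATATA and TGAATAT with higher RNA, in an earlier scan of the fold changes of these same libraries, so that holding one is a description and no independent evidence. The first pair of words shares GAACAT and the second pair shares GAATAT. Each sequence is 23 bases of the sense strand, 5′ to 3′, from GRCh37 with Gencode release 44, with the word in capitals.
PRDX1, coding sequence, chr1:45980621-45980643, minus strand: aggactgggacccaTGAACATtc
PRDX2, coding sequence, chr19:12911067-12911089, minus strand: aggcttgggcccccTGAACATcc
PRDX3, coding sequence, chr10:120931970-120931992, minus strand: tggtttgggccacaTGAACATcg
PRDX3, 3′ untranslated region (UTR), chr10:120927742-120927764, minus strand: agctagtttctacaGAACATAat
TXNRD1, coding sequence, chr12:104719182-104719204, plus strand: aaatcattgaaggaGAATATAat
OARD1, 3′ UTR, chr6:41035060-41035082, minus strand: acactctgaaccagTGAACATtt

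PRDX1, PRDX2 and PRDX3 held the same word in their coding sequence, and PRDX3 alone among the 10 also held a word in its 3′ UTR. Outside the word, around which the windows were cut, PRDX1 and PRDX2 matched at 11 of 16 bases, PRDX2 and PRDX3 at 11 and PRDX1 and PRDX3 at 9. PRDX4, PRDX5, PRDX6, TXN, TXN2 and TXNRD2 held none of the 4 words in either region. Log2 fold changes in siTARG1 against siControl were -0.16 for PRDX1, -0.14 for PRDX2, -2.87 for PRDX3 and -0.82 for TXNRD1. TXNRD1 fell while holding a word of the pair that went with higher RNA, and whether any word bears on these changes was not tested. Neither PRDX1 nor PRDX2 passed the test given below. Among genes tested that had the region, TGAACAT was in 14.2% of coding sequences and 15.1% of 3′ UTRs. Among the same genes, GAACATA was in 9.50% of 3′ UTRs and GAATATA in 8.31% of coding sequences. The 3′ UTR of OARD1 held TGAACAT again at chr6:41032570-41032592, which is not shown.

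Levels were compared between genes as CPM per kilobase of exon (CPM per kb). In siControl, PRDX1 was the most abundant of the 10 at 477 ± 18.9 CPM per kb (SD, n = 2), followed by TXN at 289 ± 2.17, PRDX5 at 259 ± 6.12 and PRDX6 at 187 ± 14.3. TXNRD1 was at 132 ± 3.29, PRDX3 at 119 ± 4.94, PRDX2 at 67.4 ± 1.81 and PRDX4 at 38.1 ± 1.69. The mitochondrial carrier TXN2 was at 20.2 ± 2.58 and the mitochondrial reductase TXNRD2 at 3.95 ± 0.254, the lowest of the 10. In siControl, no neighbours in this order had overlapping libraries.

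The order differed between the groups for PRDX3, TXNRD1, TXN and the genes they passed. In siTARG1, PRDX3 was at rank 9 with 16.3 ± 0.241 CPM per kb, just under TXN2 at 18.9 ± 0.517, while it was at rank 6 in each of the other 3 groups. TXNRD1 was at rank 5 in both siRNA groups and rank 3 in both RACK1 lines, at 228 ± 6.75 CPM per kb in RACK1-WT and 240 ± 3.78 in RACK1-Mut. TXN was at rank 2 in siControl, 3 in siTARG1 and 4 in both RACK1 lines. The neighbours whose libraries overlapped, PRDX5 and TXNRD1, did so only in RACK1-Mut.

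**Figure D1:**
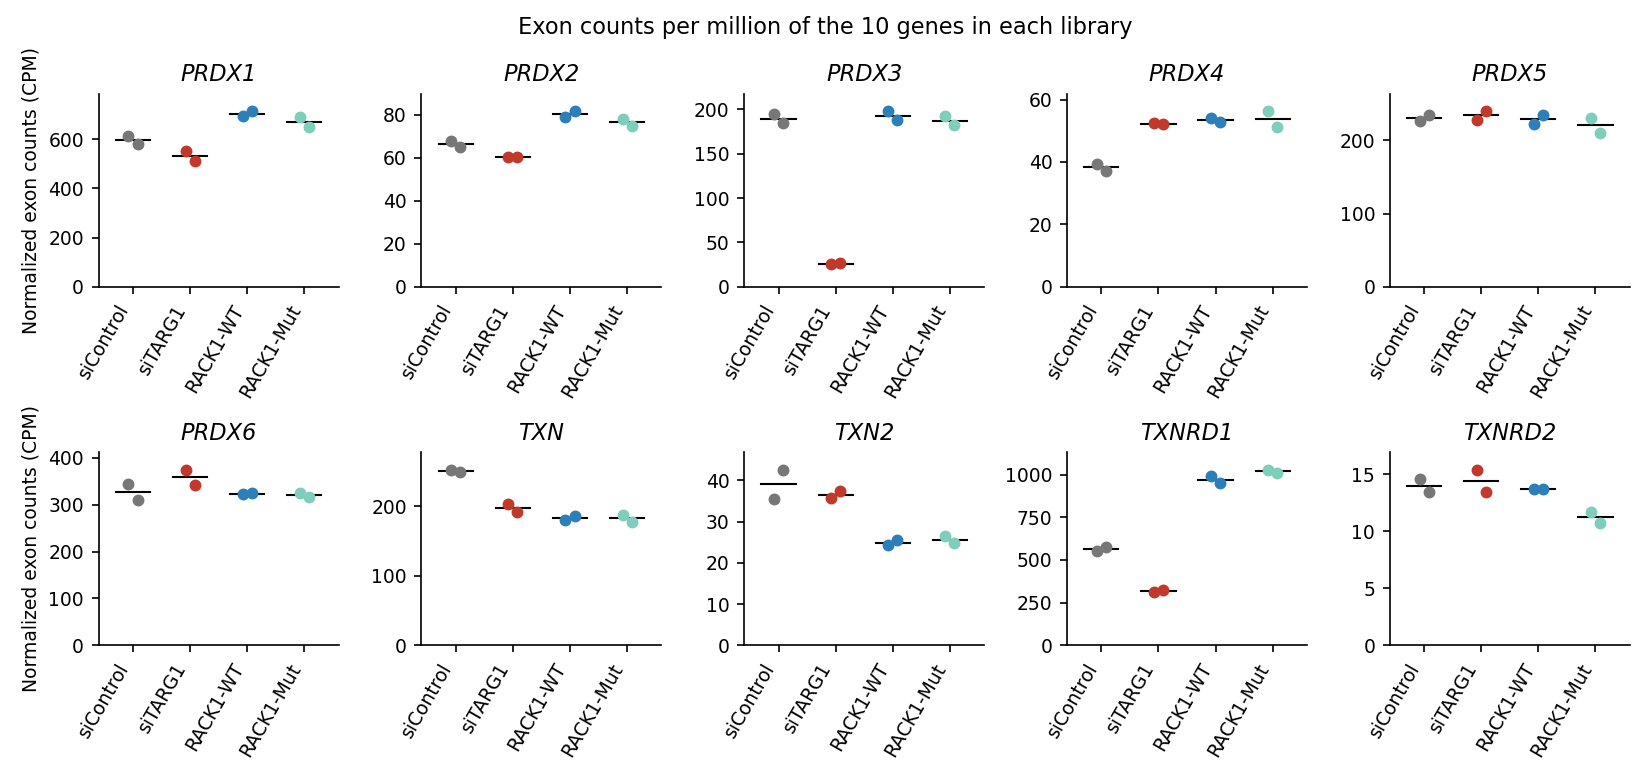
Normalized exon counts in CPM (y axis, from 0, a scale for each gene) of the 10 genes in each group (x axis); points are libraries, 2 per group, and bars are means. PRDX3 sits at 25.7 and 26.3 in siTARG1 and between 182 and 198 in the other 6 libraries.

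PRDX3, the peroxiredoxin of the mitochondrial matrix, lies at chr10:120927232-120938324 on the minus strand (ENSG00000165672). Its row held 7794 and 5638 exon counts in siControl and 1088 and 1098 in siTARG1, against 6228 and 6597 in RACK1-WT and 7786 and 7844 in RACK1-Mut. As CPM these were 195 and 184 in siControl, 25.7 and 26.3 in siTARG1, 198 and 188 in RACK1-WT, and 192 and 182 in RACK1-Mut. Both siTARG1 libraries were far under all 6 others, and those 6 overlapped one another. The siTARG1 mean was 13.7% of the siControl mean, a 7.30-fold lower level, or a log2 fold change of -2.87 (SE 0.07).

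By the same fold change PRDX3 ranked 34 from the lowest of 14024 genes, and 2 of 6314 among genes with a mean of at least 5 log2 CPM, behind CILP at -2.89. Around it in the full order were CILP (-2.89) and UGT2A1 (-2.88) on one side and HEY1 (-2.84), COLEC10 (-2.80) and LZTS1 (-2.76) on the other, of which COLEC10 and LZTS1 had at most 7 counts in any siRNA library. PRDX3 and CILP were thus the only genes among the lowest 34 with a mean that high. The mean is over all 8 libraries, siTARG1 included, so a strong fall itself lowers it. OARD1, the siRNA's target, at -3.83, was left out of the 6314 in this way. TXNRD1, the next lowest member, ranked 261 of the 6314.

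**Figure D2:**
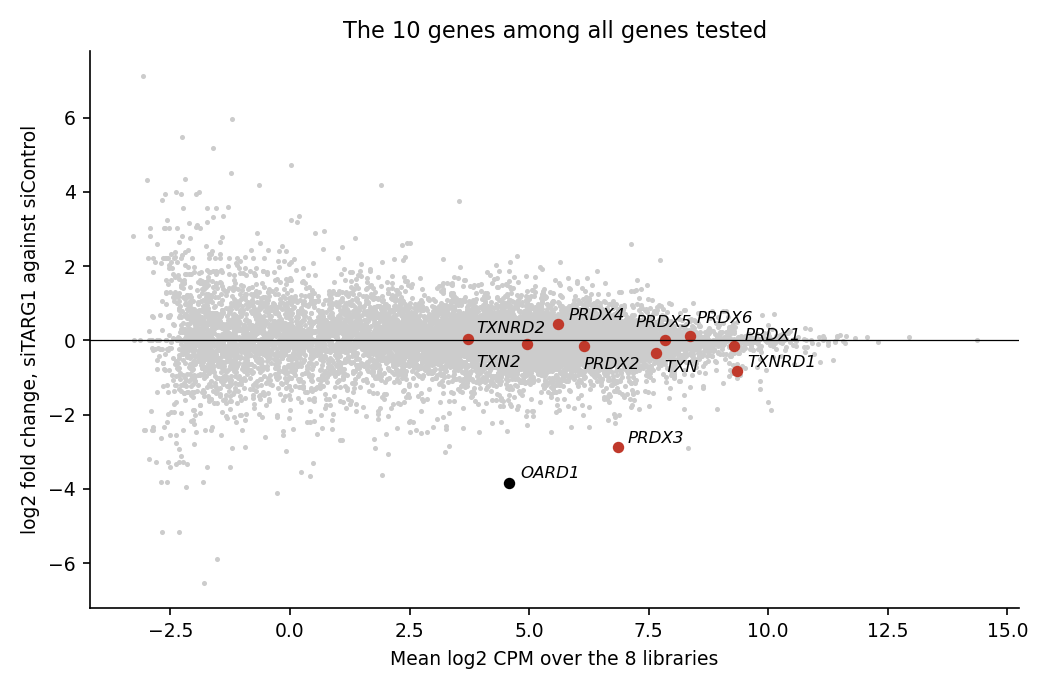
Log2 fold change in siTARG1 against siControl (y axis) by mean log2 CPM over the 8 libraries (x axis) for all 14024 genes tested (grey); the 10 genes are red and OARD1, the siRNA's target, is black. PRDX3 at -2.87 lies below the cloud of genes of its abundance, while the other 9 lie between -0.82 and 0.45.

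PRDX3 counts were low over both the coding sequence and the 3′ UTR. Over the coding sequence PRDX3 had 112 and 94.6 CPM in siControl against 14.9 and 13.3 in siTARG1, 13.7% of control. Over the 3′ UTR it had 83.7 and 89.8 CPM against 10.8 and 12.9, also 13.7% of control. The ratio of 3′ UTR to coding counts was 0.749 and 0.949 in siControl and 0.723 and 0.969 in siTARG1. PRDX3 has 4 annotated pseudogenes and shared 15.3% of its 25-base stretches with other annotated genes, PRDX3P1 above all, and none with another protein-coding gene.

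PRDX3 supplied 10.5% and 10.3% of the summed CPM per kb of the 6 peroxiredoxins in the siControl libraries and 1.55% and 1.65% in siTARG1. The sum itself was 1170 and 1120 CPM per kb in siControl and 1040 and 1000 in siTARG1. In the RACK1 lines the share of PRDX3 was 9.29% to 9.99%, close under that of siControl.

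The genes whose log2 CPM followed that of PRDX3 most closely over the 8 libraries were WDR41 (Pearson r 0.9988), CFAP36 (0.9977), SPIDR (0.9971), ARMT1 (0.9969) and ERLIN2 (0.9959), among genes with a mean of at least 5 log2 CPM. They were chosen for this likeness, and the 8 points share 4 groups. WDR41, a partner of C9orf72, averaged 56.9 CPM in siControl, 23.1 in siTARG1, 56.2 in RACK1-WT and 55.7 in RACK1-Mut. ERLIN2, a protein of endoplasmic reticulum (ER) membranes, averaged 167, 39.7, 150 and 153 CPM in the same order. All 5 were low in siTARG1 alone, with log2 fold changes of -0.76 (CFAP36) to -2.07 (ERLIN2).

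Across all genes tested, 46.6% were called in siTARG1 against siControl at an adjusted p under 0.05 (edgeR quasi-likelihood test, Benjamini-Hochberg over 14024 genes), 23.5% higher and 23.1% lower. Among the 9 family members other than PRDX3, 3 were called, or 33.3%, with PRDX4 higher and TXN and TXNRD1 lower. With so many genes called, that share is not above the background and is no result about the family. The median log2 fold change of the 9 was -0.09, against 0.01 over all genes.

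Of the cytosolic peroxiredoxins, PRDX1 was at 614 and 580 CPM in siControl and 554 and 512 in siTARG1. PRDX2, the form abundant in red cells and neurons, was at 67.7 and 65.2 CPM in siControl and 60.6 and 60.2 in siTARG1. The groups did not overlap for either gene, yet neither passed the test, with log2 fold changes of -0.16 (SE 0.07, 95% interval -0.31 to -0.01, adjusted p = 0.073) for PRDX1 and -0.14 (SE 0.07, interval -0.28 to 0.01, adjusted p = 0.11) for PRDX2. Without siTARG1 replicate 1, PRDX1 was called at -0.22 (adjusted p = 0.039).

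PRDX4, the peroxiredoxin of the ER, moved the other way. It was at 39.5 and 37.1 CPM in siControl and at 52.5 and 52.0 in siTARG1, without overlap. PRDX4 rose by a log2 fold change of 0.45 (SE 0.08, adjusted p = 0.00025), to 137% of control. Over its coding sequence the CPM were 36.9 and 35.5 against 49.0 and 50.2, and over its counted 3′ UTR of 64 bases they were 2.54 and 1.59 against 3.47 and 1.81, which overlapped and gave no call (0.33, adjusted p = 0.49).

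PRDX5, found in mitochondria, peroxisomes and the cytosol, was at 227 and 235 CPM in siControl and 228 and 240 in siTARG1, with overlapping groups. Its log2 fold change was 0.02 (SE 0.07), with an interval of -0.14 to 0.17 and an adjusted p of 0.88. PRDX6, the peroxiredoxin with a single active cysteine that also acts on phospholipids, was at 345 and 310 CPM in siControl and 375 and 343 in siTARG1. The groups overlapped for PRDX6 as well (0.13, SE 0.07, interval -0.02 to 0.29, adjusted p = 0.16). For these peroxidases the data therefore bound the change on the log2 scale to under 0.3 in either direction, far from the value of PRDX3.

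TXN, the cytosolic thioredoxin, was at 253 and 250 CPM in siControl and 203 and 192 in siTARG1. Its groups were apart, and TXN fell by 0.35 on the log2 scale (SE 0.07, adjusted p = 0.00059), to 78.5% of control. TXN2, the mitochondrial thioredoxin, was at 35.5 and 42.6 CPM in siControl and 35.8 and 37.3 in siTARG1. Both TXN2 values in siTARG1 lay inside the siControl range, and the log2 fold change was -0.09 (SE 0.09, interval -0.29 to 0.10, adjusted p = 0.44).

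TXNRD1, the cytosolic reductase, was at 554 and 574 CPM in siControl and 313 and 327 in siTARG1. The siTARG1 libraries were well under those of siControl, and TXNRD1 fell by 0.82 on the log2 scale (SE 0.07, adjusted p = 3.3e-07), to 56.7% of control. The fall covered the coding sequence, at 305 and 314 against 174 and 182 CPM, and the 3′ UTR, at 231 and 244 against 128 and 134 CPM. TXNRD2, the mitochondrial reductase, was at 14.6 and 13.4 CPM in siControl and 15.4 and 13.4 in siTARG1, with overlapping groups (0.04, SE 0.10, interval -0.18 to 0.26, adjusted p = 0.79). The mitochondrial pair TXN2 and TXNRD2 was thus not called where the cytosolic pair TXN and TXNRD1 was, a contrast that was not itself tested.

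**Figure D3:**
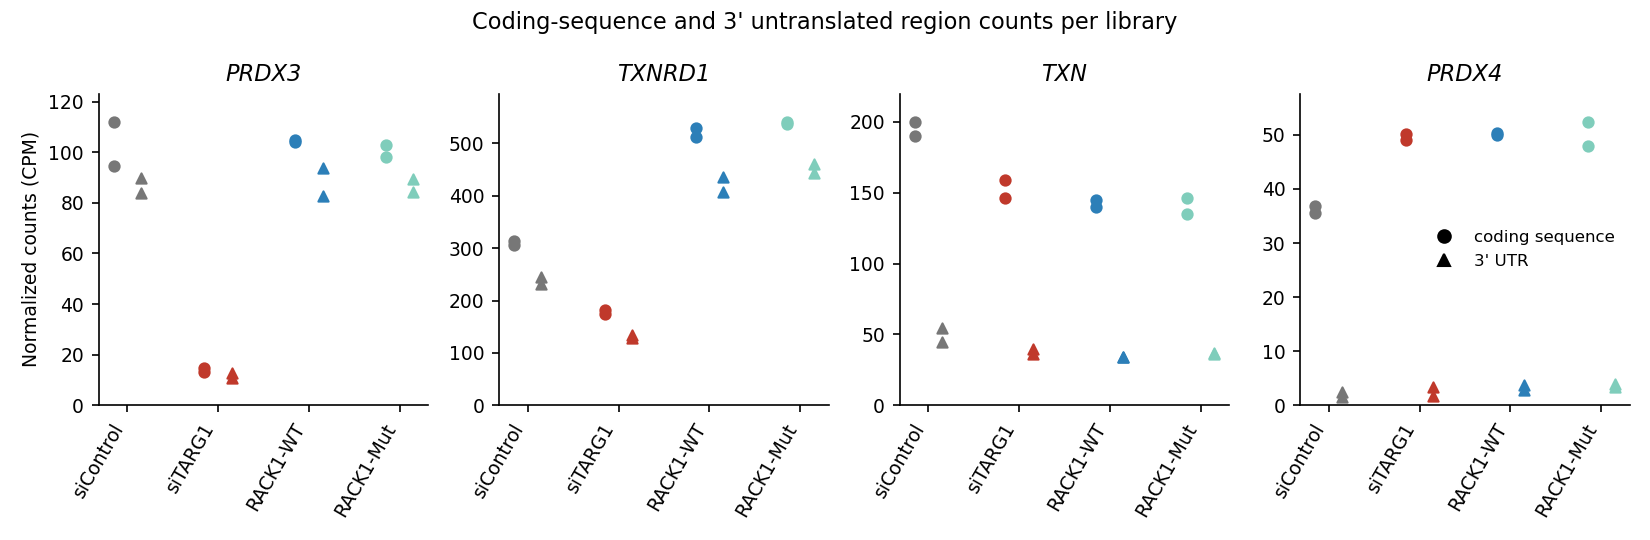
Normalized counts in CPM (y axis, from 0) over the coding sequence (circles) and the 3′ UTR (triangles) of 4 genes in each group (x axis), 2 libraries per group. PRDX3 and TXNRD1 are lower over both regions in siTARG1, whereas the 3′ UTR of PRDX4 stays under 4 CPM in every library.

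Members other than PRDX3 have near copies too. TXN shared 19.9% of its 25-base stretches with other annotated genes and has 7 pseudogenes, PRDX2 shared 18.4%, PRDX1 10.4% and PRDX6 8.70%, so their counts could include or lose reads of those copies. TXNRD1 and PRDX4 shared none. PRDX2 overlaps HOOK2 on the same strand, and PRDX1 overlaps MMACHC on the opposite strand, whose reads can be told apart only if the counting used strand, which is not given in the sources used here.

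RACK1-Mut against RACK1-WT asks what loss of the ADP-ribosylation sites of RACK1 does, and the family was not chosen on it. None of the 10 genes was called by edgeR or by DESeq2, and 1 of the 10, TXNRD2, had an unadjusted edgeR p under 0.05, as did 687 of all 14024 genes. Over all genes 0.00713% were called, a single gene, so the count of 0 among the 10 is no result about the family. RACK1 itself was lower in RACK1-Mut by a log2 fold change of -0.36 (SE 0.08), which did not pass adjustment (adjusted p = 0.30).

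PRDX3, at 198 and 188 CPM in RACK1-WT and 192 and 182 in RACK1-Mut, had overlapping groups and a log2 fold change of -0.04 (SE 0.07, 95% interval -0.19 to 0.10, edgeR adjusted p = 1). A change of PRDX3 between the RACK1 lines beyond 0.19 in either direction thus lay outside the interval. TXNRD1 was at 991 and 951 CPM in RACK1-WT and 1030 and 1010 in RACK1-Mut, apart by little, with a log2 fold change of 0.07 (interval -0.07 to 0.21, adjusted p = 1). TXNRD2 was at 13.7 CPM in both RACK1-WT libraries and 11.7 and 10.7 in RACK1-Mut, without overlap. Its log2 fold change of -0.29 (SE 0.10, interval -0.52 to -0.07, adjusted p = 0.90) had the largest size of the 10 in this comparison.

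The remaining members were within 0.1 of 0 between the RACK1 lines. PRDX1 went from 693 and 715 CPM in RACK1-WT to 689 and 651 in RACK1-Mut, and PRDX2 from 79.1 and 81.8 to 78.3 and 74.9, each with a log2 fold change of -0.07. PRDX4, PRDX5, PRDX6, TXN and TXN2 ran from -0.05 (PRDX5) to 0.04 (TXN2), and the groups overlapped for all 5. Each had an adjusted p of 1.

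**Figure D4:**
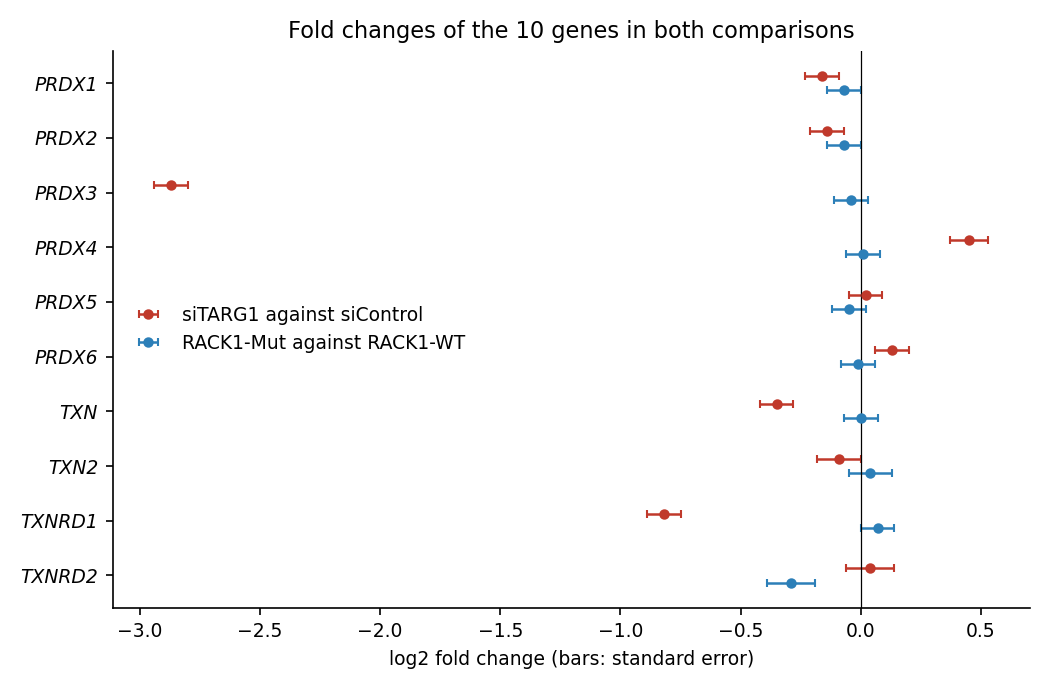
Log2 fold change (x axis) of each of the 10 genes (y axis) in siTARG1 against siControl (red) and RACK1-Mut against RACK1-WT (blue); bars are standard errors of the fit. The red points spread from -2.87 for PRDX3 to 0.45 for PRDX4, and the blue points from -0.29 for TXNRD2 to 0.07 for TXNRD1.

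The difference between the effects of the siRNA and of the RACK1 mutation was tested in the same fit. Over all genes 32.4% were called for this difference, and among the 9 members other than PRDX3 it was 3, or 33.3%, so the share was near the background. PRDX4 differed by 0.44 (SE 0.11, adjusted p = 0.0062), TXN by -0.35 (SE 0.09, adjusted p = 0.010) and TXNRD1 by -0.89 (SE 0.09, adjusted p = 9.1e-06). The call of TXN was lost without RACK1-WT replicate 1 (-0.32, adjusted p = 0.06). For TXNRD2 the difference was 0.33 (SE 0.15, adjusted p = 0.10), and it was called without siTARG1 replicate 2 (0.41, adjusted p = 0.044).

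The siRNA cells and the RACK1 lines came from separate experiments, so their levels are set side by side with no test. PRDX3 in RACK1-WT was 1.02 times its siControl mean, and PRDX5 and PRDX6 were 0.99 and 0.986 times theirs. TXNRD1 was 1.72 times and PRDX4 1.40 times their siControl means, and TXN and TXN2 were 0.728 and 0.638 times. PRDX3 was thus alike in siControl and the RACK1 lines, while TXN and TXN2 were lower and TXNRD1 and PRDX4 higher in those lines than in siControl. PRDX4 averaged 52.3 CPM in siTARG1, 53.4 in RACK1-WT and 53.8 in RACK1-Mut, and TXN averaged 197, 183 and 183 in the same order.

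Promoters were searched for 1 motif. The core of the antioxidant response element bound by NRF2, TGACNNNGC on either strand, was looked for from 250 bases before to 50 bases after each start in the RefSeq promoters of GRCh38.p14. It was in 13.3% of 35116 promoters. Of the 7 members with a promoter there, TXNRD1 alone held it, in both of its promoters. Matches on the minus strand begin 8 bases before 1 start and 102 bases before the other, and are not shown. The match on the plus strand begins 99 bases before the first of these starts, and the core is in capitals.
TXNRD1, promoter, chr12:104215672-104215696, plus strand: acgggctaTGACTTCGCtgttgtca

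The rest of the redox system was described through 6 lists with 90 genes in all, of which 81 were tested. In siTARG1, 51 of the 81, or 63.0%, were called by the same test, 20 higher and 31 lower. Over all genes 46.6% were called, 23.5% higher and 23.1% lower, the shares against which each list below is to be read. The median log2 fold change was -0.14 over the 81 and 0.01 over all genes. The 81 were not compared with genes of like abundance, on which calls depend, so their higher share is not shown to be particular to redox genes. In RACK1-Mut against RACK1-WT, none was called by edgeR or DESeq2, and 6 had an unadjusted edgeR p under 0.05, against the 687 of 14024 above. What follows is siTARG1 against siControl. The named genes are those of each list with the largest called change without overlap, and for the NRF2 list all called genes.

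Of 22 tested genes of the thioredoxin system besides the 10, 6 rose and 9 fell, with a median of -0.10. TMX1, a thioredoxin-like oxidoreductase of the ER membrane, was at 95.4 and 117 CPM in siControl and 26.6 and 35.5 in siTARG1, and fell by 1.78 on the log2 scale (SE 0.12, adjusted p = 7.6e-08). MSRB3, a methionine sulfoxide reductase, fell from 101 and 110 CPM to 29.7 and 33.8, a log2 fold change of -1.73, and TMX3, another ER oxidoreductase, fell by 0.97. MSRB3 was also low in both RACK1 lines, at 38.3 to 43.6 CPM, while TMX1 was at 95.6 to 106 there.

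The glutathione system, which reduces peroxides in parallel, had 5 genes higher and 6 lower among 21 tested, with a median of -0.02. GSR, the reductase that restores glutathione, rose from 138 and 134 CPM to 226 and 216, a log2 fold change of 0.70 (SE 0.07, adjusted p = 1.3e-06). GSR was also higher in the RACK1 lines than in siControl, at 208 to 227 CPM. GGT1, which breaks down extracellular glutathione, and GPX7, an ER peroxidase, fell by 1.22 and 1.07 from means of 1.87 and 1.43 CPM. With coding-sequence counts alone GPX7 was at -0.60 and no longer called (adjusted p = 0.33).

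Among 4 tested enzymes of superoxide and peroxide removal, 1 rose and 2 fell. SOD2, the mitochondrial superoxide dismutase that produces hydrogen peroxide from superoxide, rose from 48.3 and 51.9 CPM to 98.0 and 103 (1.00, SE 0.07, adjusted p = 8.6e-08). Catalase (CAT), the peroxisomal enzyme, fell from 148 and 150 to 103 and 108 CPM, a log2 fold change of -0.49, and CCS, the copper chaperone of SOD1, by 0.41. The call of CCS was lost without siControl replicate 1 (-0.24, adjusted p = 0.14) and without siTARG1 replicate 2 (-0.25, adjusted p = 0.066). SOD2 was also higher in the RACK1 lines than in siControl, at 110 to 117 CPM.

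For NRF2 and its targets, 20 genes were tested, with 3 called higher, 6 called lower and a median of -0.17. ME1, the cytosolic malic enzyme, fell from 210 and 209 CPM to 67.7 and 80.4 (-1.50, SE 0.08, adjusted p = 1.0e-08). AKR1B10, an aldo-keto reductase, and MAFG, a binding partner of NRF2, rose by log2 fold changes of 0.77 and 0.61. TKT (0.24) was also called higher. Besides ME1, those called lower by edgeR were NFE2L2, the gene of NRF2 itself (-0.40, SE 0.08, adjusted p = 0.00065), HMOX1 (-0.49), NQO1 (-0.46), TALDO1 (-0.38) and SLC7A11 (-0.35). Most genes of the list were lower, 17 of the 20 by sign alone, while its called genes went both ways. Called genes of NADPH supply, with 15 tested, also went both ways, 6 higher and 6 lower, with a median of -0.07.

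IDH1, the cytosolic isocitrate dehydrogenase that makes NADPH, was at 2560 and 2360 CPM in siControl and 667 and 675 in siTARG1, and fell by 1.87 on the log2 scale (SE 0.08, adjusted p = 8.1e-10). ALDH1L2, a mitochondrial folate enzyme that also yields NADPH, rose by 0.76. IDH1 at 837 to 945 CPM and ME1 at 76.9 to 84.3 CPM were low in the 4 RACK1 libraries as well, unlike PRDX3.

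Both reductases need selenoprotein synthesis, and of them TXNRD1 was called lower while TXNRD2 was not called. A link to the genes of that process was not tested. Among these 7 genes, 5, or 71.4%, were called lower and none higher in siTARG1 by edgeR, with a median of -0.29. Over all genes 23.1% were called lower. Without siControl replicate 1, siControl replicate 2 or siTARG1 replicate 1 it was 3 called genes in each case. PSTK, which phosphorylates the serine carried by the selenocysteine tRNA, fell from 10.4 and 9.41 CPM to 5.13 and 5.96 (-0.84, SE 0.12, adjusted p = 5.0e-05). SECISBP2, which binds the signal for selenocysteine in the mRNA, fell from 41.1 and 41.9 to 23.3 and 24.8 CPM (-0.78, SE 0.08, adjusted p = 1.6e-06). TRNAU1AP fell by 0.29, a call that was lost without siControl replicate 1, siControl replicate 2 or siTARG1 replicate 1 (-0.30 to -0.26, adjusted p of 0.054 to 0.089).

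**Figure D5:**
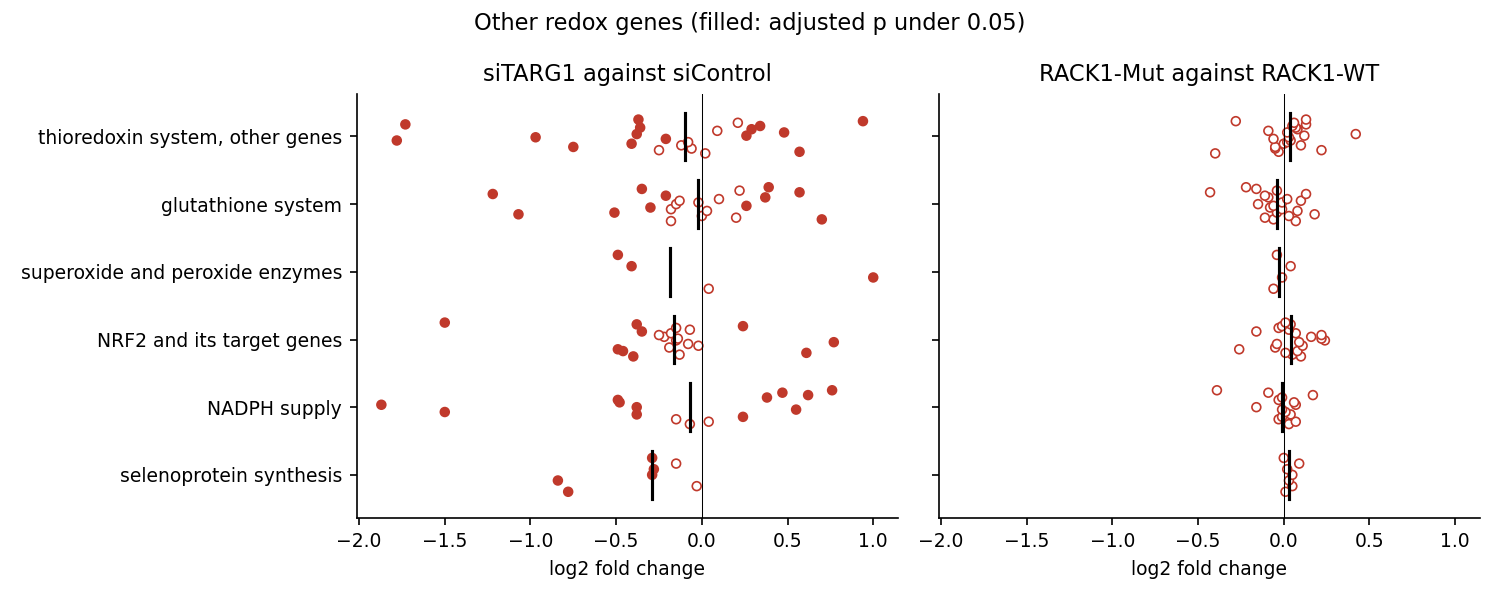
Log2 fold changes (x axis) of the tested genes of 6 redox lists (y axis) in siTARG1 against siControl (left) and RACK1-Mut against RACK1-WT (right); each circle is a gene, filled where its adjusted p is under 0.05, and bars are list medians. Filled circles lie on both sides of 0 on the left except for selenoprotein synthesis, and there are none on the right.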

How the data were processed

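RNA was measured in 8 OVCAR3 libraries, 2 per group, grouped by the GEO titles. Per the submitters' notes and the study's methods, the authors removed rRNA and other reads with Bowtie 1.1.2, aligned the rest with TopHat2 2.1.1 to hg19 (GRCh37), allowing up to 64 positions per read, and counted alignments of 25 to 51 bases with Plastid on Gencode v24 genes; DESeq2 is also named. The deposited exon, coding and UTR values are estimated counts (37.8% to 41.6% of exon values above 0 in a library are whole, replicates not pooled), and the authors also deposited RPKM, used here only as an alternative.

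Counts of 30989049 to 42668783 per library were rounded and fitted with edgeR 4.0.16 (R 4.3.3; TMM, filterByExpr, glmQLFit and glmQLFTest) over all 8 libraries with 1 mean per group, which left 4 residual degrees of freedom. The threshold was an adjusted p of 0.05 over 14024 genes. CPM are the counts before rounding per 1000000 of the TMM library size, whereas log2 CPM were taken from the rounded counts. The script was tested on simulated data. Of 36595 transcript names, 94.7% matched Gencode release 44. DESeq2 1.42.0 and the authors' RPKM, for which no test was run, served as alternatives.

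The 10 genes and the lists were chosen with earlier results of these data known. Named besides the 10 were the targeted genes, the 3 genes of each list with the largest called change without overlap, the 5 most like PRDX3 and its neighbours in rank. The other called genes of the NRF2 list were named as well. Some items are not reported here. Of the 90 list genes, 85 had a row, and the rest were not analysed here.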

Additional observations from a re-analysis of the deposited data

Results flagged for a closer look

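For 3 of the 9 genes tested, the effect of the TARG1 siRNA differed from that of the RACK1 mutation by the test of the difference itself (edgeR quasi-likelihood test, adjusted over 14024 genes, of which 32.4% were called). The log2 fold change of PRDX4 was 0.44 higher in the siRNA comparison than in the RACK1 comparison (adjusted p = 0.0062). That of TXN differed by -0.35 (adjusted p = 0.010) and that of TXNRD1 by -0.89 (adjusted p = 9.1e-06). With 3′ UTR counts alone, TXNRD1 was still called, but PRDX4 (0.21, adjusted p = 0.82) and TXN (-0.47, adjusted p = 0.056) were not. The comparisons differ in transfection, lines and doxycycline as well as in the gene targeted, and these cannot be told apart.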

How the results depend on the processing

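PRDX3 stayed at -2.90 to -2.76 in siTARG1 against siControl under every alternative run. TXNRD1 was called at -0.87 to -0.78 under each alternative with a test, and was -0.71 with the authors' RPKM, which had none. With 3′ UTR counts, 3612 genes were called in that comparison (6537 with exon counts), 30 of the other redox genes (51) and 1 member for the difference of the effects (3), for which 2050 genes were called (4550). By list, 3′ UTR counts gave 8 called genes for the thioredoxin system (15), 7 for glutathione (11), 5 for NRF2 (9) and 2 for selenoprotein synthesis (5), for which leaving out a library gave 3 to 5. Only 1 gene was called between the RACK1 lines, against 17 with DESeq2, 15 with no filter, 0 with at least 10 counts in every library, 49 with only those 4 libraries, 2 with coding counts and 0 with 3′ UTR counts, and 0 to 9 with a library left out. With the replicate number as a block it was 72, and 7 of the 10 members were called in siTARG1 (4 without the block), with PRDX1, PRDX2 and PRDX6 added, and 14 of the NRF2 list (9). Same-numbered libraries deviated together at r = 0.26 in the siRNA experiment and 0.03 in the RACK1 experiment, and the labels give only a number, so the block is no pairing by design. Signs turned only for values near 0 that were called under no setting. With the authors' RPKM, PRDX6 was 0.03 between the RACK1 lines and TXN2 0.02 in siTARG1, and with 3′ UTR counts TXN2 was -0.03 between the RACK1 lines and TXNRD2 -0.20 in siTARG1. With a library left out, siTARG1 values ran from -0.03 to 0.05 for PRDX5, -0.21 to 0.05 for TXN2 and -0.06 to 0.12 for TXNRD2. Values between the RACK1 lines ran from -0.06 to 0.08 for PRDX4, -0.12 to 0.01 for PRDX5, -0.03 to 0.01 for PRDX6 and -0.01 to 0.09 for TXN2, and the difference of the effects from -0.01 to 0.14 for PRDX5 and -0.25 to 0.01 for TXN2. The cause was not tested in any of these cases. With 2 libraries per group, leaving one out assumes that the lone library varies like the other groups.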
